A study of Mus musculus with 47 samples.

Results

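The genes described here are 8 genes of the MHC class II pathway, taken from the deposited count table by their symbols: H2-Aa, H2-Ab1, H2-Eb1, Cd74, H2-DMa, H2-DMb1, H2-DMb2 and Ciita. All 8 were found among the 20456 genes listed, and all 8 passed the filter on low counts that left 16892 genes for testing. MHC class II molecules are pairs of an alpha and a beta chain that carry peptides from the endocytic pathway to the cell surface, where CD4+ T cells read them. Dendritic cells, B cells and macrophages make them constitutively or on activation. The invariant chain blocks the peptide groove until late endosomes, H2-DM exchanges the remaining fragment of it for a peptide, and the transactivator Ciita is recruited to the promoters of these genes by factors that sit on short conserved boxes.

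The series measured RNA of liver, lung and brain from mouse embryos of stage E18.5 on a C57BL/6 background. Daxx is a chaperone of the histone variant H3.3, and embryos were homozygous for one of 2 single-residue knock-in alleles made with CRISPR/Cas9 in C57BL/6N zygotes, with founders crossed back to C57BL/6J. By the paper's co-immunoprecipitation from overexpressing cells, S226A abolishes the binding of Daxx to H3.3 and Y130A its binding to Atrx. The paper adds that loss of Atrx binding may be incomplete, as some replicates held a faint band. Mutants were set against the wild-type embryos of the same litters. The 47 libraries fall into 12 groups of 4 embryos, apart from 3 wild-type lungs of the Y130A litters, and they come from 17 embryos of 8 litters, so that 1 embryo usually gave all 3 tissues. The paper removed the remaining wild-type lung of the Y130A litters as an outlier. No agent was given, and each mutant group represents 1 knock-in allele. P-values treat the embryos of a group as replicates, and those between tissues do not account for tissues taken from the same embryo.

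Total counts ranged from 15722147 to 26190403 in the S226A litters and from 36351738 to 54885020 in the Y130A litters, so that low levels are measured less precisely in the S226A set. Levels are given as CPM, read counts scaled to the size of the library after TMM adjustment. Defining markers matched the tissue labels: the hepatocyte list summed to at least 140500 CPM in every liver and to at most 1202 CPM in any lung or brain, the neuron list to at least 5104 CPM in every brain, and the alveolar type 2 list to at least 8764 CPM in every lung. Transcripts of squamous epithelium reached 205.8 CPM in wild-type liver replicate 2 of the S226A litters and 144.3 CPM in Y130A liver replicate 1, against 2.36 to 9.41 CPM in the other livers, and both libraries were left out in an alternative fit. Daxx itself was at 40.2 ± 3.89 CPM in S226A liver and 41.4 ± 6.55 CPM in wild-type liver (SD, n = 4 each), and its adjusted p was at least 0.857 in each of the 6 comparisons of mutants with wild-type littermates. A substitution does not show in a count, so this does not check the genotype. These are RNA levels. For Daxx protein the paper reports an increase in Y130A and a decrease in S226A, most clearly in embryonic fibroblasts.

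Of the 8 genes, 6 lie on chromosome 17, the chromosome of Daxx, and 2 do not. In GENCODE M21 (GRCm38), Daxx spans 33909414 to 33915590 of chromosome 17 on the plus strand. H2-DMa starts 204.0 kb beyond the end of Daxx, H2-DMb2 227.7 kb, H2-DMb1 237.5 kb, H2-Ab1 342.1 kb, H2-Aa 367.2 kb and H2-Eb1 390.3 kb. Cd74 lies on chromosome 18 (60803848 to 60812652) and Ciita on chromosome 16 (10480059 to 10528418).

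The exons of H2-DMa share 360 of 3448 bases with Brd2 on the other strand and those of Ciita share 329 of 9535 bases with Dexi. The strand setting of the counting is not given in the sources used here, so reads of these stretches cannot be told apart. H2-DMb1 and H2-DMb2 are near copies, with 15.8% and 16.1% of their 75-base transcript stretches also found in another gene, so that counts of either are uncertain. The other 6 genes had no shared stretch.

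The promoters are shown because class II genes are known for the boxes through which Ciita is recruited. The part of these boxes in the values below was not tested. RefSeq (GRCm38.p6) gave a stretch before the start of 5 of the 8 genes. The letters searched on both strands were CNGATGATG (X box), TGACGTCA (the palindromic CRE, which overlaps the place of the X box) and TGATTGG (Y box), and they were chosen after these promoters had been read. Capitals mark the matches, each stretch runs 5′ to 3′ on the strand of its gene, and any bases in an annotated exon of the gene are left out.
H2-Aa (chr17:34287824-34287973, minus strand): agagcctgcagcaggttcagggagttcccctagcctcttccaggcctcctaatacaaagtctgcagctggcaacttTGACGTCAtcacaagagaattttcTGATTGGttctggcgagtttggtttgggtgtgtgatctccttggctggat
H2-Eb1 (chr17:34305717-34305866, plus strand): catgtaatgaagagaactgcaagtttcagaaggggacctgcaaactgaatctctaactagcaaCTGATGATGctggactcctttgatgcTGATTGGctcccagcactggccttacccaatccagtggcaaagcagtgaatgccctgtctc
H2-DMb2 (chr17:34145099-34145235, plus strand): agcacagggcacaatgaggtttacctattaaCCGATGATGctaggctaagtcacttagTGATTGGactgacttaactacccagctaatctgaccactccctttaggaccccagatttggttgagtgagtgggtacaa

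In H2-Eb1 the X box is followed by the Y box after 17 bases, and in H2-DMb2 after 18 bases. H2-DMb1 holds both motifs in the same order, also 18 bases apart, but they lie within the exon that GENCODE annotates for the gene (119 of the 150 bases are exonic), so its stretch is not shown. H2-Aa has the CRE and the Y box 16 bases apart in place of the X box letters, and neither of the 2 stretches listed for H2-DMa holds any of the 3 motifs. Over 32851 promoter stretches of the same length (150 bases before the start), 0.508% held the X box, 1.36% the CRE and 5.71% the Y box, and 7 stretches (0.0213%) held the X and Y boxes on 1 strand, among them those of H2-DMb1, H2-DMb2 and H2-Eb1. A match of letters is a description of the window and does not show that a factor binds there.

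In wild-type embryos 7 of the 8 genes, all but H2-DMa, were at higher levels in liver and lung than in brain. Compared per length, in CPM per kb of exon over the wild-type embryos of both sets, Cd74 (the invariant chain) was highest in lung at 13.3 ± 2.04 (SD, n = 7) and in liver at 5.96 ± 0.726 (n = 8), and in both tissues its libraries lay above those of the next gene. In liver the following levels were 2.82 ± 0.828 for H2-Ab1, 1.68 ± 0.312 for H2-Eb1, 1.49 ± 0.498 for H2-Aa, 1.07 ± 0.342 for H2-DMa, 1.06 ± 0.511 for H2-DMb1 and 0.887 ± 0.341 for H2-DMb2. Neighbours in the order among these 6 genes overlapped. Ciita was lowest in liver at 0.182 ± 0.0734 CPM per kb, below every library of H2-DMb2. In lung H2-DMb1 came second at 2.31 ± 0.595 CPM per kb, and from there to H2-DMb2 at 0.660 ± 0.307 no neighbours in the order were apart.

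**Figure D1:**
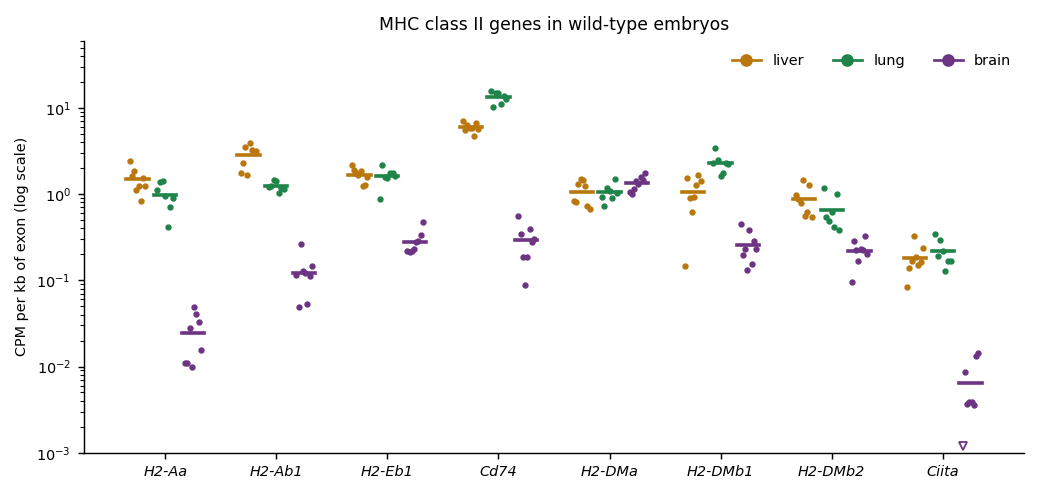
Levels of the 8 genes in wild-type embryos, in CPM per kb of exon on a log axis, by gene and tissue. Points are libraries (8 livers, 7 lungs, 8 brains), bars are means, and an open triangle is a library without a read; most brain libraries of H2-DMa lie in the range of both liver and lung, those of H2-DMb1 reach into the range of liver, and Cd74 was highest in liver and lung.

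In brain the order was led by H2-DMa at 1.34 ± 0.265 CPM per kb (n = 8), apart from Cd74 at 0.291 ± 0.143. H2-Aa was at 0.0247 ± 0.0151 and Ciita at 0.00640 ± 0.00510 CPM per kb. Between wild-type liver and brain, 7 of the 8 genes were higher in liver (edgeR's quasi-likelihood test, Benjamini-Hochberg adjusted p below 0.05), where 41.8% of all genes tested were higher. The log2 fold change was 5.93 ± 0.42 (SE) for H2-Aa, 4.84 ± 0.56 for Ciita, 4.48 ± 0.33 for H2-Ab1 and 4.36 ± 0.20 for Cd74, with adjusted p of at most 1.56e-10 by edgeR. Between lung and brain the same 7 genes were higher in lung (41.3% of all genes), led by Cd74 with a log2 fold change of 5.50 ± 0.21 (edgeR, adjusted p = 4.23e-26). H2-DMa did not pass in either comparison, with log2 fold changes of -0.32 and -0.33. It passed as lower in liver than in brain under RLE scaling (-0.39, edgeR adjusted p = 0.031) and with DESeq2 (0.0246), and as lower in lung with only the compared libraries in the fit (-0.34, edgeR adjusted p = 0.0371). It also passed without wild-type liver replicate 4 of the S226A litters (edgeR adjusted p = 0.0313) or replicate 1 of the Y130A litters (0.0211) in the first comparison, and without wild-type lung replicate 3 of the S226A litters (0.0497) or replicate 2 of the Y130A litters (0.0277) in the second.

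Between wild-type lung and liver the genes differed in both directions. Cd74 (log2 fold change 1.14 ± 0.16) and H2-DMb1 (1.15 ± 0.26) were higher in lung, where 42.3% of all genes were higher, and H2-Ab1 (-1.19 ± 0.29) and H2-Aa (-0.69 ± 0.32) were lower, as were 37.8% of all genes. The call for H2-Aa (edgeR, adjusted p = 0.0477) was lost under RLE scaling (0.0696), without a filter on low counts (0.0577) and when any of 10 single libraries was left out. It did not pass with litter as a block either (0.114), but between tissues that fit compares the first litter of each set only. H2-Eb1, H2-DMa, H2-DMb2 and Ciita did not pass. When the 2 sets of wild-type embryos were compared within each tissue, none of the 8 genes passed by edgeR or DESeq2. Of all genes, 13.1% passed in liver, 20.1% in lung and 5.98% in brain by edgeR. None of the 8 had an unadjusted p below 0.05, as 28.0%, 31.6% and 18.4% of all genes did. In lung, however, the wild-type libraries of the S226A litters lay above those of the Y130A litters for 3 of the 8 genes. The means were 4.637 against 2.562 CPM for H2-Aa, 3.391 against 2.886 CPM for H2-Ab1 and 2.503 against 1.478 CPM for Ciita. In brain they lay below for H2-Eb1 (0.4258 against 0.6662 CPM), and in liver the sets overlapped for every gene. Without wild-type liver replicate 2 of the S226A litters, H2-DMb1 passed between the livers (-1.26, edgeR adjusted p = 0.0255).

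Among the comparisons of mutants with wild-type littermates, the largest differences were in the livers of S226A embryos, where the class II chains and the invariant chain fell. Of the 8 genes 4 fell and none rose, by edgeR's quasi-likelihood test at an adjusted p below 0.05, while 5.54% of all genes tested were lower and 6.14% higher. All 4 also met the study's stringent criteria (adjusted p below 0.01, more than a 2-fold change, standard error of the log2 fold change below 1), as 0.847% of all genes did in that direction, and in all 4 the mutant libraries lay below every wild-type library (5.18% of all genes). The median log2 fold change over the 8 genes was -1.97, against -0.01 over all genes tested. In bulk tissue, fewer cells of a type and less RNA per cell cannot be told apart.

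H2-Aa encodes the alpha chain of the I-A molecule. In replicates 1 to 4, S226A livers held 3, 18, 3 and 0 reads of it, and wild-type livers held 150, 94, 99 and 69. In CPM these were 0.198, 0.832, 0.186 and 0 in S226A, where the library without a read allows up to 0.199 CPM (3 counts, counting error only), and 9.21, 6.18, 7.11 and 4.23 in wild-type littermates. The highest S226A library was thus below the lowest wild-type library by a wide margin. The log2 fold change was -4.32 ± 0.54 (SE), with an adjusted p of 1.39e-07 by edgeR, and -5.66 without S226A replicate 2, which held 18 of the 24 S226A reads.

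H2-Ab1 encodes the beta chain that pairs with H2-Aa. Its levels were 0.527, 1.85, 1.36 and 1.06 CPM in S226A livers and 4.55, 5.92, 9.13 and 4.23 CPM in wild-type livers. The groups did not overlap, and the log2 fold change was -2.28 ± 0.42 (4.87-fold lower, edgeR adjusted p = 0.000153).

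H2-Eb1 encodes the beta chain of the I-E molecule. C57BL/6 mice carry a defective alpha chain gene for I-E, so this transcript is made in a strain known to lack the molecule at the surface. S226A livers held 2, 10, 6 and 0 reads (0.132, 0.462, 0.371 and 0 CPM) and wild-type livers 68, 57, 47 and 53 reads (4.18, 3.75, 3.38 and 3.25 CPM). Every S226A library was below every wild-type library, with a log2 fold change of -3.82 ± 0.45 (14.1-fold lower, edgeR adjusted p = 3.02e-08). The 3 chains summed had a median of 1.49 CPM in S226A livers (0.856 to 3.14) and 16.9 CPM in wild-type livers (11.7 to 19.6).

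Cd74, the invariant chain, lies on another chromosome than the chains. Its levels were 2.24, 3.05, 0.928 and 2.06 CPM in S226A livers and 11.9, 9.33, 10.6 and 9.68 CPM in wild-type livers. The groups were apart, and the log2 fold change was -2.31 ± 0.26 (4.94-fold lower, edgeR adjusted p = 8.82e-09). In the 4 litters, the S226A embryo was below its wild-type littermate in 4 of 4 for H2-Aa, H2-Ab1, H2-Eb1, Cd74 and Ciita, as for 12.9% of all genes.

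**Figure D2:**
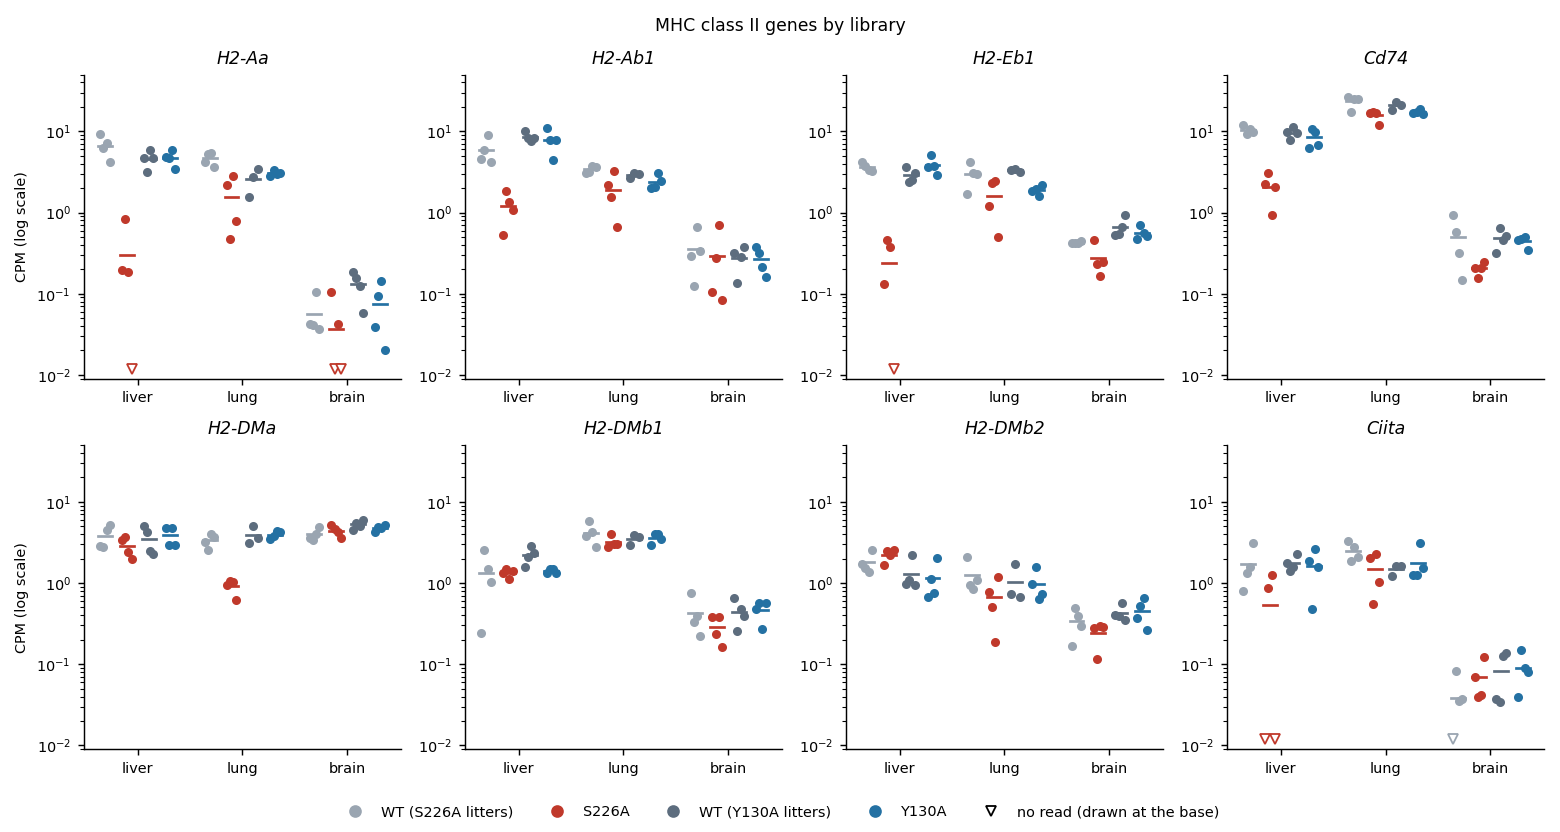
Level of each gene in each of the 47 libraries, in CPM on a log axis, by tissue and genotype. Points are libraries, bars are group means, and open triangles are libraries without a read; the S226A livers of H2-Aa, H2-Ab1, H2-Eb1 and Cd74 and the S226A lungs of H2-DMa lie below all their wild-type littermates.

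Ciita, the transactivator, was not called in S226A liver. No read was seen in replicates 1 and 4, which allows up to 0.198 and 0.199 CPM, while replicates 2 and 3 were at 0.878 and 1.24 CPM. Wild-type livers were at 0.798, 1.31, 1.58 and 3.13 CPM. The groups therefore overlapped, and the log2 fold change was -1.65 ± 0.65 (95% interval -2.96 to -0.33, edgeR adjusted p = 0.097). The call was gained with DESeq2 (-1.69, adjusted p = 0.045) and without S226A replicate 3 (-2.39, edgeR adjusted p = 0.0294).

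The H2-DM genes, whose products load peptides onto class II molecules, did not pass in S226A liver. H2-DMa was at 3.42, 3.70, 2.41 and 1.99 CPM in S226A livers and at 2.89, 2.76, 4.46 and 5.15 CPM in wild-type livers, with a log2 fold change of -0.40 (95% interval -0.91 to 0.12). H2-DMb1 had a log2 fold change of -0.01 (-0.79 to 0.77) and H2-DMb2 of 0.31 (-0.59 to 1.21). Mutant and wild-type libraries overlapped for all 3, and in 2 of 4 litters the mutant was higher for each of these genes. The H2-DM genes summed had a median of 6.15 CPM in S226A livers and 7.08 CPM in wild-type livers.

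In the lungs of S226A embryos H2-DMa fell and the other 7 genes did not pass. Its product is the alpha chain of H2-DM. S226A lungs held 23, 23, 22 and 15 reads (0.948, 1.07, 1.02 and 0.620 CPM) and wild-type lungs 68, 56, 80 and 68 reads (3.19, 2.52, 4.01 and 3.73 CPM). The groups did not overlap, and the log2 fold change was -1.87 ± 0.27 (3.66-fold lower, edgeR adjusted p = 2.29e-05). Brd2, which overlaps H2-DMa on the other strand, was at 174 CPM in S226A lung and 180 CPM in wild-type lung (log2 fold change -0.05).

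H2-DMa was 1 of 8 genes called in S226A lung, where 1.02% of all genes were lower and 0.852% higher. The log2 fold changes of all 8 genes were below 0, with a median of -0.85 against 0.00 over all genes. The S226A embryo was below its wild-type littermate in 4 of 4 litters for H2-Aa, H2-Ab1, H2-Eb1, H2-DMa and Ciita (7.46% of all genes), and in 3 of 4 for H2-DMb1, H2-DMb2 and Cd74. In all, 5 of 8 genes had an unadjusted p below 0.05, as did 16.2% of all genes. H2-Aa was at 2.19, 0.466, 2.79 and 0.785 CPM in S226A lungs and 4.22, 5.30, 5.41 and 3.62 CPM in wild-type lungs. Its groups were apart, as were those of H2-DMa and of 1.72% of all genes in that direction, and its log2 fold change of -1.57 ± 0.45 missed the threshold (edgeR adjusted p = 0.0581). It passed with litter as a block (-1.78, adjusted p = 0.0313), with DESeq2 (adjusted p = 0.0104) and without wild-type lung replicate 1 (0.0421), wild-type lung replicate 2 (0.0447) or S226A lung replicate 3 (0.0214).

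The other chains were at intermediate values in S226A lung. H2-Ab1 had a log2 fold change of -0.83 (95% interval -1.64 to -0.02, edgeR adjusted p = 0.293) and H2-Eb1 of -0.90 (-1.64 to -0.16, edgeR adjusted p = 0.197). Cd74, the most abundant of the 8 genes per length, was at 16.8, 17.5, 16.6 and 11.8 CPM in S226A lungs and 26.4, 17.4, 24.9 and 24.7 CPM in wild-type lungs, with a log2 fold change of -0.57 (-1.02 to -0.13, edgeR adjusted p = 0.167). The highest S226A lung was just above the lowest wild-type lung. H2-DMb1 (-0.38), H2-DMb2 (-0.88) and Ciita (-0.76) did not pass either, with edgeR adjusted p of 0.664, 0.344 and 0.578. S226A lung replicate 4 was lowest of its group for H2-Ab1, H2-Eb1, H2-DMa and Cd74, but not for H2-Aa, H2-DMb1, H2-DMb2 or Ciita.

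In S226A brain none of the 8 genes passed, where 0.184% of all genes were lower and 0.0592% higher by edgeR. DESeq2 called none as well, and 1 of 8 genes had an unadjusted p below 0.05, against 2.27% of all genes. That gene was Cd74, with levels of 0.210, 0.156, 0.209 and 0.248 CPM in S226A brains against 0.925, 0.583, 0.317 and 0.148 CPM in wild-type brains (log2 fold change -1.21 ± 0.42, edgeR adjusted p = 0.967). The groups overlapped through wild-type replicate 4. H2-Aa and Ciita had at most 3 reads in any library of either group, so no fold is given. H2-DMb1 was lower in the mutant in 4 of 4 litters, as were 5.12% of all genes. H2-DMa was at 4.42 ± 0.689 CPM in S226A brain and 3.97 ± 0.653 CPM in wild-type brain (log2 fold change 0.15, 95% interval -0.34 to 0.64).

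**Figure D3:**
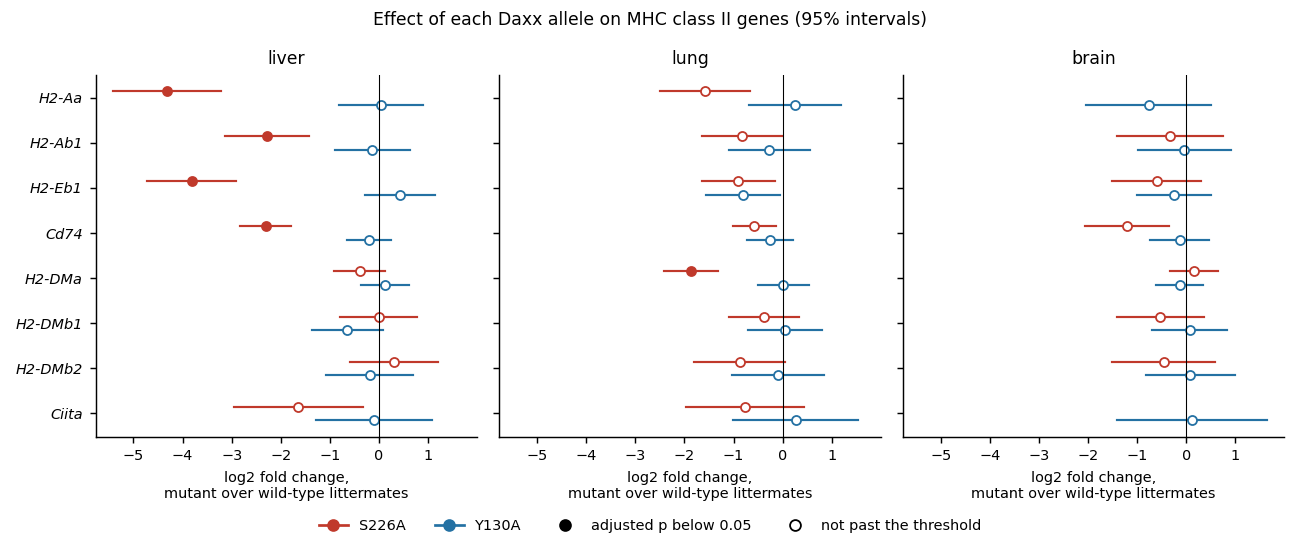
Log2 fold change of each gene in mutant over wild-type littermates, by tissue, with 95% intervals from the edgeR fit. Filled points passed an adjusted p below 0.05; these are H2-Aa, H2-Ab1, H2-Eb1 and Cd74 in S226A liver and H2-DMa in S226A lung, and no Y130A point is filled. H2-Aa and Ciita in S226A brain, with at most 3 reads in a library, are not drawn.

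Whether the effect of S226A differed between tissues was tested in the same edgeR fit, as comparisons chosen after the values had been seen. The S226A effect was more negative in liver than in lung for H2-Eb1 (difference of log2 fold changes -2.91 ± 0.58, adjusted p = 0.000639), H2-Aa (-2.75 ± 0.70, 0.00983) and Cd74 (-1.73 ± 0.34, 0.000493), and less negative for H2-DMa (1.48 ± 0.37, 0.00921). In this comparison 2.79% of all genes were more negative and 4.11% less. The H2-Ab1 difference of -1.45 did not pass (edgeR adjusted p = 0.127). H2-Eb1 also differed between liver and brain (-3.22 ± 0.64, edgeR adjusted p = 0.001, with 1.26% of all genes more negative), and H2-DMa between lung and brain (-2.03 ± 0.36, edgeR adjusted p = 0.00836, with 0.0651%). The lung and brain difference of H2-DMa did not pass with litter as a block (-2.02, adjusted p = 0.0532). With only the libraries of the compared groups in the fit, Cd74 alone of the 4 genes passed between liver and lung.

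None of the 8 genes passed in any tissue of Y130A embryos, by edgeR or by DESeq2. Of all genes, 0.272% passed in Y130A liver, 0.0178% in lung and 0.00592% in brain. At an unadjusted p below 0.05 there were 0 of 8 in liver, 1 in lung and 0 in brain, against 9.22%, 2.92% and 2.22% of all genes. The median log2 fold change over the 8 genes was -0.12 in liver, -0.04 in lung and -0.09 in brain. H2-Aa was at 4.81, 4.73, 5.95 and 3.45 CPM in Y130A livers and 4.75, 3.16, 5.81 and 4.70 CPM in their wild-type littermates, with overlapping groups and a log2 fold change of 0.04 (95% interval -0.82 to 0.90). Cd74 was at 8.41 ± 2.16 CPM in Y130A liver and 9.65 ± 1.34 CPM in wild-type liver (-0.20, interval -0.65 to 0.25).

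The values farthest from 0 in Y130A embryos were those of a few single genes. In liver these were H2-DMb1 (log2 fold change -0.65 ± 0.36, edgeR adjusted p = 0.636), where the mutant libraries lay below the wild-type libraries, as in 1.19% of all genes, and H2-Eb1 (0.42 ± 0.35, adjusted p = 0.839). H2-Eb1 was at 1.85, 1.97, 1.59 and 2.19 CPM in Y130A lungs and 3.37, 3.42 and 3.18 CPM in the 3 wild-type lungs. These groups did not overlap, as for 2.55% of all genes in that direction, but the difference of -0.81 ± 0.38 did not pass (edgeR adjusted p = 1.0). The highest value in Y130A lung was that of Ciita (0.27 ± 0.63). In Y130A brain the range was from -0.77 ± 0.63 for H2-Aa to 0.12 ± 0.75 for Ciita. Within litters, the mutant was on 1 side in every litter for H2-Eb1 (higher, 6.6% of all genes) and H2-DMb1 (lower, 6.23%) in Y130A liver, for H2-Eb1 and Cd74 (lower in 3 of 3 litters, 13.1%) in lung, and for H2-DMa (lower, 13.6%) in brain.

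The difference between the effects of both alleles was tested as an interaction. In liver it passed for H2-Aa (-4.36 ± 0.69, edgeR adjusted p = 3.85e-05), H2-Eb1 (-4.24 ± 0.57, 2.73e-06), Cd74 (-2.10 ± 0.34, 4.88e-05) and H2-Ab1 (-2.15 ± 0.56, 0.0141), 4 of 8 genes, with 2.71% of all genes more negative in S226A. In lung it passed for H2-DMa (-1.88 ± 0.38, edgeR adjusted p = 0.0103), with 0.189% of all genes. This lung call was lost with only the compared libraries in the fit (0.0615), with litter as a block (0.05) and without wild-type lung replicate 1 of the Y130A litters (0.0605). In brain none of the 8 passed by edgeR or DESeq2 (0.0829% of all genes by edgeR), and 1 of 8 had an unadjusted p below 0.05 (2.29% of all genes).

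Other genes of the pathway were counted over a list of 27 genes, 25 of which were in the table and tested. In S226A liver 4 of 25 fell and none rose, where 5.54% of all genes tested were lower and 6.14% higher, and the median log2 fold change of the list was -0.04. Ctss, the lysosomal protease cathepsin S that degrades the invariant chain, fell from 78.6 ± 8.82 to 38.1 ± 7.07 CPM (log2 fold change -1.04 ± 0.17, edgeR adjusted p = 1.69e-05). Lgmn, the endopeptidase legumain of the same compartment, fell from 157 ± 9.19 to 82.5 ± 6.39 CPM. Irf4, a transcription factor of B cells and dendritic cells, fell from 18.95 ± 1.82 to 5.55 ± 2.11 CPM, and Cd86, a ligand that costimulates T cells, from 16.7 ± 1.84 to 6.81 ± 1.88 CPM.

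Ctss also fell in S226A lung (51.7 ± 14.0 to 23.6 ± 4.88 CPM, edgeR adjusted p = 3.74e-05) and in S226A brain (8.83 ± 1.78 to 3.15 ± 0.862 CPM, edgeR adjusted p = 1.17e-05). It was the 1 gene of 25 called in lung, where 1.02% of all genes were lower, and it did not pass there with only the compared libraries in the fit (0.0635). In brain 2 of 25 fell, Ctss and Cd86, where 0.184% of all genes were lower. Cd86 went from 1.37 ± 0.336 to 0.514 ± 0.132 CPM (edgeR adjusted p = 0.0238), and its call was lost with litter as a block (0.0858), with only the compared libraries (0.127) and in 6 of 8 fits without 1 library. None of the 25 passed in a Y130A tissue by edgeR, and the interaction passed as more negative in S226A for Ctss in all 3 tissues and for Lgmn in liver. It also passed in liver in the other direction for H2-Eb2 (edgeR adjusted p = 0.0392), on at most 6 reads in any liver. The Ctss interaction in lung was lost with only the compared libraries (edgeR adjusted p = 0.127) and without wild-type lung replicate 1 of the Y130A litters (0.0605). The subunits of the RFX complex, which binds the X box and brings in Ciita, were at close values in S226A and wild-type liver: Rfx5 at 15.4 and 15.9 CPM, Rfxap at 11.1 and 10.7 CPM, and Rfxank at 14.3 and 15.5 CPM. H2-Oa and H2-Ob, whose products inhibit H2-DM, did not pass in S226A liver (H2-Ob at 1.40 ± 0.809 and 2.85 ± 1.46 CPM, edgeR adjusted p = 0.206).

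Cells that make class II molecules were followed by their markers in the same libraries. In S226A liver 11 of 12 macrophage markers fell and none rose, where 5.54% of all genes tested were lower and 6.14% higher. Their summed level was 253 to 396 CPM in S226A livers and 971 to 1165 CPM in wild-type livers. Markers of resident macrophages of the liver were among them: Clec4f fell from 130 to 0.345 CPM, Timd4 from 18.3 to 0.672 CPM, and Vsig4 from 15.9 CPM to no read in any S226A liver. Of 10 B lineage markers 7 fell, with sums of 55.3 to 124 CPM against 160 to 188 CPM, and of 10 dendritic cell markers 8 were tested and 3 fell, with sums of 29.9 to 45.4 CPM against 49.8 to 59.1 CPM. Cd209a of the dendritic cell list had no read in S226A livers and Xcr1 none in their wild-type littermates. All 8 neutrophil markers rose, as did 6.14% of all genes, with sums of 8136 to 8891 CPM against 2815 to 3490 CPM. Of 6 monocyte markers 2 rose and none fell, with overlapping sums of 8444 to 11750 CPM against 10830 to 13730 CPM. The part of these cell types in the fall of the class II genes was not tested.

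**Figure D4:**
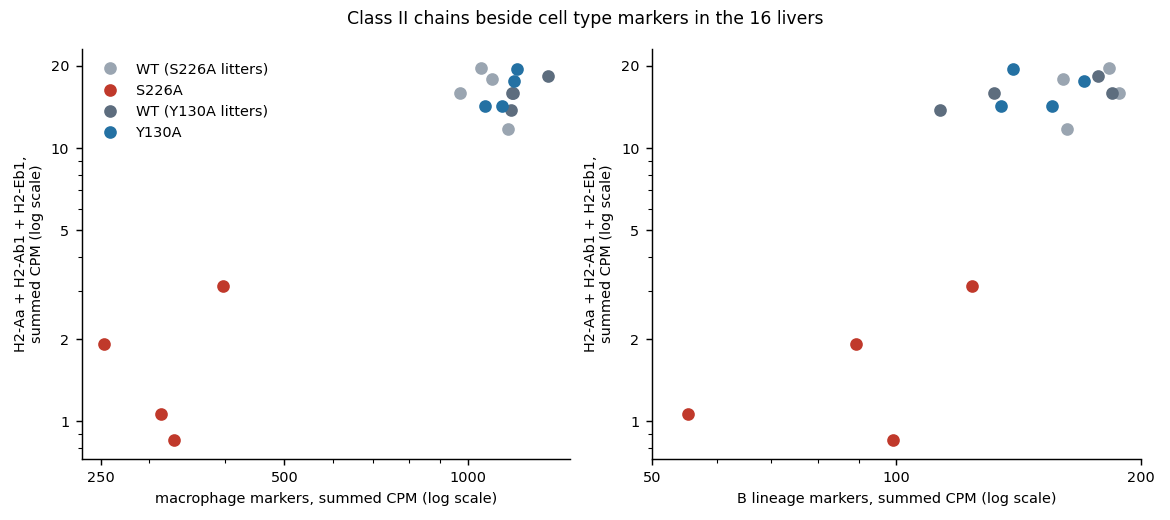
Summed CPM of H2-Aa, H2-Ab1 and H2-Eb1 in each of the 16 livers against the summed CPM of macrophage markers (left) and of B lineage markers (right), log axes, 1 point a library. The 4 S226A livers lie at 0.856 to 3.14 CPM of the chains and the other 12 livers at 11.7 to 19.6 CPM.

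As medians over libraries in liver, wild-type first, the summed level of the 3 chains went from 16.9 to 1.49 CPM, the macrophage markers from 1072 to 321 CPM, the B lineage markers from 173 to 94.2 CPM and the dendritic cell markers from 52.8 to 39.6 CPM. The dendritic cell sum is mostly that of Zbtb46, at a mean of 32.07 CPM in wild-type and 24.96 CPM in S226A livers, and the median log2 fold change was -1.03 over the dendritic cell list, -1.07 over the B lineage list and -1.92 over the macrophage list. In Y130A livers the macrophage sum was 1068 to 1206 CPM against 1177 to 1354 CPM, and none of the 12 markers passed, where 0.272% of all genes did.

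In S226A lung, where H2-DMa fell, 3 macrophage markers fell (Csf1r, Cx3cr1 and Adgre1) and 2 rose (Marco and Cd5l), where 1.02% of all genes were lower and 0.852% higher, and the sums were 170 to 182 CPM against 210 to 243 CPM in wild-type lungs. Of 10 B lineage markers 3 fell, among them Pax5 and Ms4a1, the latter without a read in any S226A lung, with overlapping sums of 31.1 to 32.6 CPM and 28.2 to 39.4 CPM. The median log2 fold change over the B lineage list was -0.96 in S226A lung. The same list summed to 50.2 to 63.7 CPM in wild-type brains of the S226A litters, above lung, so overlapping sums do not show that B lineage RNA was kept. Of the dendritic cell markers, Siglech fell to no read in any S226A lung, and 6 of 8 neutrophil markers rose. None of the 8 alveolar type 2 markers passed, and their sums overlapped at 11050 to 14110 CPM in S226A and 11580 to 14550 CPM in wild-type lungs. In S226A brain 5 macrophage markers fell and Marco rose, where 0.184% of all genes were lower and 0.0592% higher, with sums of 34.2 to 44.0 CPM against 79.9 to 82.8 CPM. Siglech fell as well, and 2 of 8 neutrophil markers rose. The part of these cells in the values of the class II genes was not tested.

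Genes whose levels varied most like those of the 4 genes that fell in S226A liver were found by correlation over the 47 libraries. The mean log2(CPM + 1) of H2-Aa, H2-Ab1, H2-Eb1 and Cd74 was centred in each tissue. Among the 10 closest genes were Axl (Pearson r = 0.935), Clec4f (0.906), Timd4 (0.901), Vsig4 (0.901), Fcrla (0.892), Hpgds (0.887), Cd163 (0.880), Cd72 (0.873) and Cd22 (0.871). With group means removed the correlations of the 10 genes were 0.106 to 0.569, so that they rest largely on differences between groups. Treated alike, Ciita had r = 0.610, H2-DMa 0.384, H2-DMb1 0.196 and H2-DMb2 -0.317, and with group means removed 0.164, 0.205, 0.058 and -0.358. The points share libraries, and the values are descriptions.

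The genes around Daxx were counted as a comparison for the chains. Of 49 tested genes other than the 6 described here, with Daxx and the class II genes H2-Oa, H2-Ob and H2-Eb2 among them, from 500 kb before the start of Daxx to 500 kb beyond that of H2-Eb1, 6 were higher and 1 was lower in S226A liver (14.29%, against 11.7% of all genes), with a median log2 fold change of 0.10. In S226A lung 1 was higher and 1 lower (4.08%, against 0.852% of all genes higher and 1.02% lower). In S226A brain and the 3 Y130A tissues none of the 49 passed by edgeR, where at most 0.272% of all genes did. The part of the position near Daxx in these values was not tested.

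**Figure D5:**
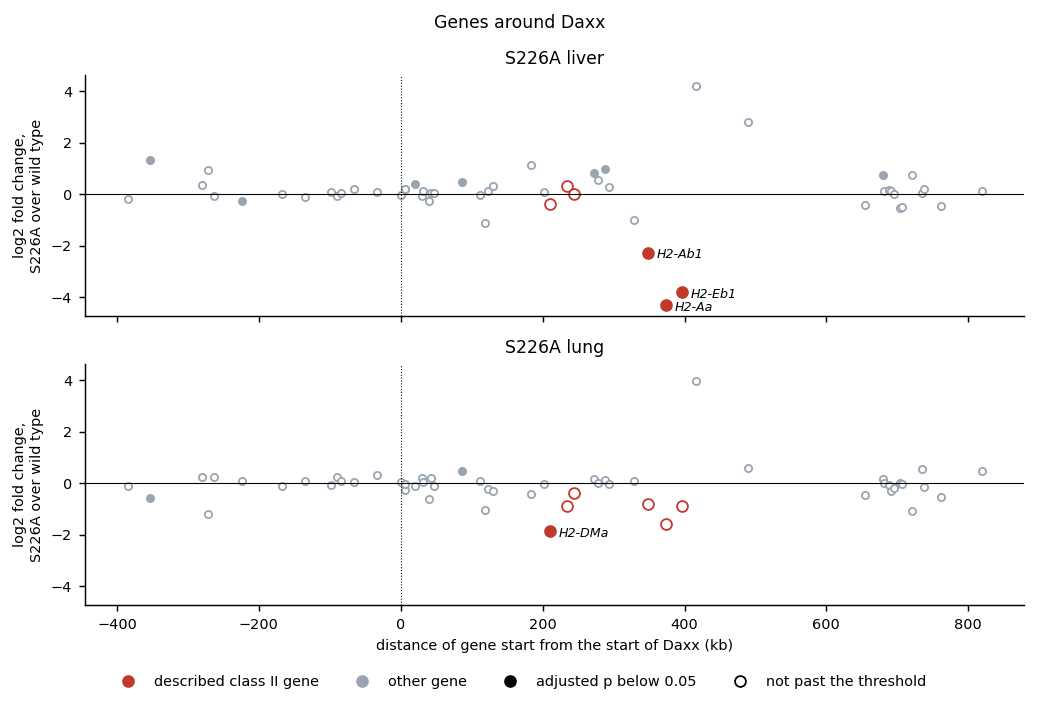
Log2 fold change in S226A over wild-type liver (top) and lung (bottom) against the distance of the gene start from the start of Daxx in kb, for the 6 described class II genes of chromosome 17 (red) and 49 other genes, with Daxx, H2-Oa, H2-Ob and H2-Eb2 among them (grey). Filled points passed an adjusted p below 0.05; H2-Ab1, H2-Aa and H2-Eb1 in liver and H2-DMa in lung are the filled red points.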

How the data were processed

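RNA-seq was done on liver, lung and brain of E18.5 embryos (47 libraries). The authors aligned reads to GRCm38.p6 with STAR 2.6.0b, counted them per gene of GENCODE M19, and deposited raw counts without normalization. The submitters' processing notes also name Trim Galore 0.6.5, FastQC 0.11.5 and DESeq2. Positions and exon lengths are from GENCODE M21, which matched 20445 of 20456 genes.

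All libraries were fitted together with edgeR 4.0.16 (R 4.3.3) by the quasi-likelihood test, with 1 coefficient per group, TMM scaling, a filter of 10 counts (15 in total) and Benjamini-Hochberg adjustment over 16892 genes. Standard errors were derived from the fold change and the F statistic, intervals are 95% intervals of the fit, and floors cover counting error only. The code was tested on simulated data. No 2 replicates agreed within sampling noise (chi-square per degree of freedom of at least 4.17 in 69 pairs).

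Groups and litters were taken from the labels. The litter number pairs littermates: 18 of 23 littermate pairs had residuals correlated above 0.1, against 5 of 69 pairs from other litters. Alternatives were DESeq2 1.42.0, RLE scaling, no filter, only the compared libraries, litter as a block, the stringent criteria, the Y130A set thinned to the depth of the S226A set, and leaving out each library. Leaving out 2 livers with squamous transcripts and comparing S226A effects between tissues were chosen after seeing the data. The 8 genes and the lists were chosen with earlier results of these data known. Named are the 8 genes, list genes that passed in a comparison, RFX subunits, H2-Oa, H2-Ob, Daxx, antisense partners and the 10 genes of most like pattern, some of which are not reported here. H2-Eb2, Xcr1 and Cd209a were named after their values were seen.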

Additional observations from a re-analysis of the deposited data

Results flagged for a closer look

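In 5 of 88 groups of 4 libraries, 1 library lay far from the others by Dixon's criterion (gap to the nearest library over the range above 0.829), where chance gives about 1 in 20 groups. H2-Aa was at 0.106 CPM in wild-type brain replicate 3 of the S226A litters and at 0.0370 to 0.0420 CPM in the others, which is 3 reads against 1 read in each. H2-DMb2 was at 0.117 CPM in S226A brain replicate 2 (others 0.280 to 0.293 CPM) and at 2.23 CPM in wild-type liver replicate 3 of the Y130A litters (others 0.940 to 1.08 CPM). Cd74 was at 11.8 CPM in S226A lung replicate 4 (others 16.6 to 17.5 CPM). Ciita was at 3.08 CPM in Y130A lung replicate 3 (others 1.25 to 1.54 CPM).

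The effects of S226A and Y130A differed by the interaction in edgeR's quasi-likelihood test. In liver the difference of log2 fold changes was -4.36 for H2-Aa, -2.15 for H2-Ab1, -4.24 for H2-Eb1 and -2.10 for Cd74, and in lung -1.88 for H2-DMa. For Ctss it was -1.11 in liver, -1.27 in lung and -1.48 in brain (adjusted p = 0.00204, 0.00779 and 0.0044), and for Lgmn -0.81 in liver (1.19e-05). The Ctss difference in lung did not pass with only the compared libraries (0.127) or without wild-type lung replicate 1 of the Y130A litters (0.0605). H2-Eb2 passed in liver (edgeR adjusted p = 0.0392) on few reads: 0, 5, 0 and 0 in S226A livers, 4, 6, 6 and 0 in wild-type livers of the Y130A litters, and none in the other 8 livers. No fold is given for it, and the call was lost with DESeq2 (0.0727), with litter as a block (0.134) without the 2 livers with squamous transcripts (0.0841) and in 11 of 16 fits without 1 library (up to 1.0, without S226A liver replicate 2).

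The effect of S226A differed between tissues in the same fit. Between liver and lung the difference was -2.75 for H2-Aa, -2.91 for H2-Eb1, -1.73 for Cd74 and 1.48 for H2-DMa. It was -3.22 for H2-Eb1 between liver and brain, and -2.03 for H2-DMa between lung and brain.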

How the results depend on the processing

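The falls of H2-Aa, H2-Ab1, H2-Eb1 and Cd74 in S226A liver and of H2-DMa in S226A lung passed in all alternatives run for them (15 in liver, 14 in lung), with log2 fold changes of -5.66 to -3.95, -2.59 to -2.0, -4.38 to -3.44, -2.58 to -2.07 and -1.99 to -1.72. Their adjusted p reached at most 0.00228 in liver and 0.0445 in lung. Low counts in the S226A livers (0 to 18 reads a library for H2-Aa, 0 to 10 for H2-Eb1, 0 to 20 for Ciita) limit the precision there.

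Counts of called genes moved as follows. In S226A lung 2 were called with DESeq2 and with the replicate block by litter, in place of 1. The lung interaction had 0 calls with only the compared libraries, with the replicate block and by the stringent criteria. In the wild-type livers of the 2 sets 1 (H2-DMb1) was called without the 2 livers with squamous transcripts (-1.26, adjusted p = 0.0249). The liver and lung difference of the S226A effect had 1 call with only the compared libraries, the liver and brain difference 3 with DESeq2, and the lung and brain difference 0 with the replicate block. The replicate block moved no other count by more than 1.5 times. Litter was coded within tissue and set, with the first litter as the reference. Between wild-type tissues or sets the blocked fit therefore compares fitted levels of the first litters only, and its values are not adjusted for litter. There H2-DMb1 went from 1.98 to 1.06 (liver and brain), from 3.13 to 2.43 (lung and brain) and from -0.73 to -1.64 (livers of the 2 sets). Ciita went from 4.99 to 5.88 (lung and brain) and from 0.15 to 0.83 (lung and liver). Without S226A liver replicate 2, H2-Aa had an interaction of -5.7 in liver and a liver and lung difference of -4.08.

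Between wild-type liver and brain, and between lung and brain, 7 to 8 genes were called without 1 library. Leaving out 1 library gave 4 to 5 calls in S226A liver, 1 to 2 in S226A lung, 0 to 1 for the lung interaction, 0 to 1 between the wild-type livers and 1 to 2 for the liver and brain difference. The wild-type liver call came without replicate 2 of the S226A litters, and the liver and brain calls without S226A liver replicate 2 or wild-type brain replicate 3 of the S226A litters. Cd86 in S226A brain did not pass with only the compared libraries (0.127) or the replicate block (0.0858), and in 6 of 8 fits without 1 library. Ctss in S226A lung did not pass with only the compared libraries (0.0635).

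The values that reversed had not passed. H2-DMb1 in S226A liver (-0.01) became 0.01 with only the compared libraries, 0.19 with the block and 0.53 without the squamous livers. Ciita in Y130A brain became -0.01 with the Y130A set thinned. Between wild-type lung and liver, H2-Eb1 (-0.04) became 0.02 (RLE, DESeq2) and 0.05 (thinned), H2-DMa (-0.02) became 0.05 (RLE, DESeq2), 0.02 (only the compared libraries) and 0.01 (thinned), and H2-DMb2 (-0.43) became 0.10 with the block. That blocked value compares the first litters only. Without 1 library the ranges were -0.36 to 0.52 for H2-DMb1 in S226A liver, -1.22 to 0.18 for H2-Ab1 in S226A brain, -0.13 to 0.41 and -0.22 to 0.44 for Ciita in Y130A lung and brain, and -0.15 to 0.06 for H2-Eb1 and -0.13 to 0.10 for H2-DMa between wild-type lung and liver. The causes were not tested.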
